A study of Mus musculus with 8 samples.

Results

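Genes that encode Piwi proteins and the factors that make or use their small RNAs were examined in RNA-seq data of juvenile mouse testes: *Piwil1*, *Piwil2*, *Piwil4*, *Mov10l1*, *Ddx4*, *Mael*, *Asz1*, *Pld6*, *Henmt1* and *Gtsf1*. The rule that picked them names the genes and uses no measured value, and they are 10 of the 24651 genes obtained by summing the transcript counts of each gene symbol. The samples were 8 pairs of testes taken at postnatal day 12 from males of a mixed strain background, 4 labelled wild type and 4 labelled *Morc2b*-/-. In the *Morc2b*-/- mice the single coding exon (exon 2) was replaced constitutively by a neomycin cassette driven by the *Pgk1* promoter, and the line descends from 1 targeted clone of V6.5 embryonic stem cells. The sample labels and the study's methods call the controls wild type, whereas the design text of the series calls them heterozygous (*Morc2b*+/-), and the counts do not settle which is right.

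Piwi proteins are Argonaute-family proteins of the germ line that bind piRNAs, small RNAs that guide them to transposon and other transcripts. In the mouse, PIWIL2 (MILI) is present from fetal germ cells onward, PIWIL4 (MIWI2) acts mainly in fetal gonocytes, and PIWIL1 (MIWI) appears when spermatocytes enter pachytene and carries the large class of pachytene piRNAs into the spermatid stage. The helicase MOV10L1 hands precursor RNA to the mitochondrial surface, where the endonuclease PLD6 cuts it in a complex with the scaffold protein ASZ1, and HENMT1 methylates the end of the finished piRNA. DDX4 (mouse Vasa) and MAEL are germ granule proteins, and GTSF1 is a partner of Piwi proteins in target cleavage. Testes at day 12 hold spermatogonia and spermatocytes up to about zygotene, and pachytene cells follow shortly after, so the data address whether genes of this pathway, and above all the late gene *Piwil1*, were at different levels without *Morc2b*.

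In these files a read is counted only where it falls on a single listed transcript. Of the 10 genes, 9 were matched to a listed transcript, 8 passed the filter on low counts and 6 were listed under 1 transcript only and are therefore counted over their whole length: *Piwil1*, *Piwil2*, *Mov10l1*, *Mael*, *Asz1* and *Gtsf1*. *Ddx4* and *Henmt1* were listed under 2 transcripts each and held 696 and 136 counts in all 8 samples together, which come only from the part specific to 1 transcript. *Pld6*, under 3 transcripts, held 19 counts in all and was not tested. No transcript was matched to *Piwil4*, which was not analysed here, so *Piwil1* is compared with *Piwil2* alone.

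The libraries held 27144796 to 36941755 counts on transcripts, and values below are CPM (counts scaled to a library total of 1e+06) after TMM normalization unless stated otherwise. *Morc2b* itself, the deleted gene, was at 11.7, 16.3, 0.857 and 40.0 CPM in wild type replicates 1 to 4 and at 0.323, 0.270, 3.29 and 0.0688 CPM in *Morc2b*-/- replicates 1 to 4. The library labelled wild type replicate 3 was thus below the library labelled *Morc2b*-/- replicate 3, against their labels. The fold changes of the fully counted genes and of *Ddx4* and *Tdrd9* are also given without this pair. Wild type replicate 3 also had the lowest pachytene marker sum of all (26.4 CPM), and per the study *Morc2b* expression rises from pachytene onward. Neither a label error nor germ cell stage was tested as the cause. Wild type replicate 3 was the lowest wild type library for every fully counted gene and *Tdrd9*. Leaving it out by itself makes their fold changes more negative. Markers of the labelled tissue were present in every library, with sums of 1182 to 1513 CPM for 9 spermatogonial genes and 6675 to 8124 CPM for 8 Sertoli cell genes. The 7 spermatid markers, which a day 12 testis should lack, reached sums of 304 CPM for the library labelled *Morc2b*-/- replicate 3 and 149 CPM for wild type replicate 1, against 1.19 to 33.7 CPM in the other 6 libraries. Epididymal markers (7 genes, with *Lcn5* and *Rnase10*, each listed under more than 1 transcript, at 0) reached 249.6 CPM in wild type replicate 1 and at most 14.5 CPM elsewhere. Their part in the results below was not tested.

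Several genes of the pathway, *Piwil1* among them, are known targets of A-MYB, the spermatocyte transcription factor encoded by *Mybl1*. The sequence before the start of each gene was read from RefSeq (GRCm38.p6), which held 11 promoters for 9 of the 10 genes and none for *Piwil2*. The letters AACTG, a core of MYB binding sites, were searched on both strands (CAGTT on the other) in the 250 bases before the start. They were found in 3 of the 11 promoters, those of *Piwil1* and *Mael* and the downstream of the 2 *Piwil4* promoters, beside 39.1% of 32851 promoters in the table. The 150 bases before the start are printed here for the pachytene gene *Piwil1* and for *Mael* and *Mov10l1*, genes already on in earlier germ cells, 1 with and 1 without the match, which is in capitals. They lie at chr5:128736096-128736245 on the plus strand, chr1:166238745-166238894 on the minus strand and chr15:88982844-88982993 on the plus strand.
Piwil1: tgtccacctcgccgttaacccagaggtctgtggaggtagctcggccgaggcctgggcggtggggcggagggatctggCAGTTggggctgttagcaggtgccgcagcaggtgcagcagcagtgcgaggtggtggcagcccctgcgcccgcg
Mael: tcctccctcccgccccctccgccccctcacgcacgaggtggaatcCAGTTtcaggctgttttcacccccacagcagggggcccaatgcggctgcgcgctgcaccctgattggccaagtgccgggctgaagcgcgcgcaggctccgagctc
Mov10l1: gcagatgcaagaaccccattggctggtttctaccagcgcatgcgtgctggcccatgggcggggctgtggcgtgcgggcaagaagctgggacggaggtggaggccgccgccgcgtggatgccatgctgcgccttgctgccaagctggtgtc

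The match begins 73 bases before the start in *Piwil1* and 105 bases before it in *Mael*, and the *Mov10l1* window holds none. A match of 5 letters is a description of the sequence and not a binding site. In the NCBIM37 (mm9) annotation that fits the build of the reads, *Piwil1* lies on chromosome 5 from 129242121 to 129261349 with 22 exons, and *Piwil2* on chromosome 14 from 70772287 to 70828901 with 23 exons.

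*Piwil1* was the gene of the pathway with the largest difference between genotypes, and the largest spread. Its levels were 36.2, 46.3, 16.6 and 133 CPM in wild type replicates 1 to 4, and 15.5, 14.8, 14.7 and 15.8 CPM in *Morc2b*-/- replicates 1 to 4. The genotypes did not overlap: all *Morc2b*-/- libraries lay below all wild type libraries, and the former were nearly alike while the latter spread over an 8-fold range. The mean was 58.0 ± 51.4 CPM in wild type and 15.2 ± 0.551 CPM in *Morc2b*-/- (SD, n = 4 each), so the *Morc2b*-/- mean was 26.2% of the wild type mean. In bulk tissue, fewer cells that express a gene and less RNA per cell cannot be told apart.

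The fitted log2 fold change of *Piwil1* (*Morc2b*-/- over wild type) was -1.93 with a standard error of 0.53. In edgeR's quasi-likelihood test the unadjusted p was 0.00513 and the Benjamini-Hochberg adjusted p over all 13507 genes tested was 0.9998, so *Piwil1* did not pass the threshold of 0.05. The study, which used Cuffdiff on these libraries, names *Piwil1* among the genes it called. It worked from FPKM (counts scaled for length and depth) with an expression cutoff, at an FDR under 0.05, so the measures differ. For a selection of its called genes, it also reports the differences by real-time PCR in independent day 12 testes. An exact two-sided permutation test over the 70 ways to assign the genotype labels gave p = 0.0286, the smallest that 4 against 4 samples allow, and 1 after adjustment over all genes tested. No gene of the whole table passed the adjusted threshold in edgeR (0 of 13507, 0%), and 249 genes (1.84%) had an unadjusted p under 0.05, while DESeq2 called 1 gene, *Pkmyt1*, which lies outside the pathway. Wild type replicate 4 alone held 57.3% of the wild type CPM of *Piwil1*. Without it the wild type mean was 33.0 ± 15.1 CPM (SD, n = 3) and the log2 fold change -1.12. Without the 2 libraries whose *Morc2b* counts go against their labels the log2 fold change was -2.22, with an adjusted p of 0.509 in edgeR. That choice leaves out wild type replicate 3, the lowest wild type library for *Piwil1*. Without wild type replicate 3 alone the log2 fold change was -2.24.

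The gap between the genotypes was narrow at one place. The library labelled wild type replicate 3 held 465 *Piwil1* counts, or 16.6 CPM with a 95% Poisson interval of 15.1 to 18.2 CPM, which covers counting error only. The interval of *Morc2b*-/- replicate 4 was 14.4 to 17.3 CPM, and those of the 3 other *Morc2b*-/- libraries ended at 16.9, 16.1 and 16.0 CPM. The interval of the lowest wild type library thus overlapped those of all 4 *Morc2b*-/- libraries. The other 3 wild type libraries, from 34.3 CPM at the lower end of their intervals upward, lay apart from all of them.

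**Figure D1:**
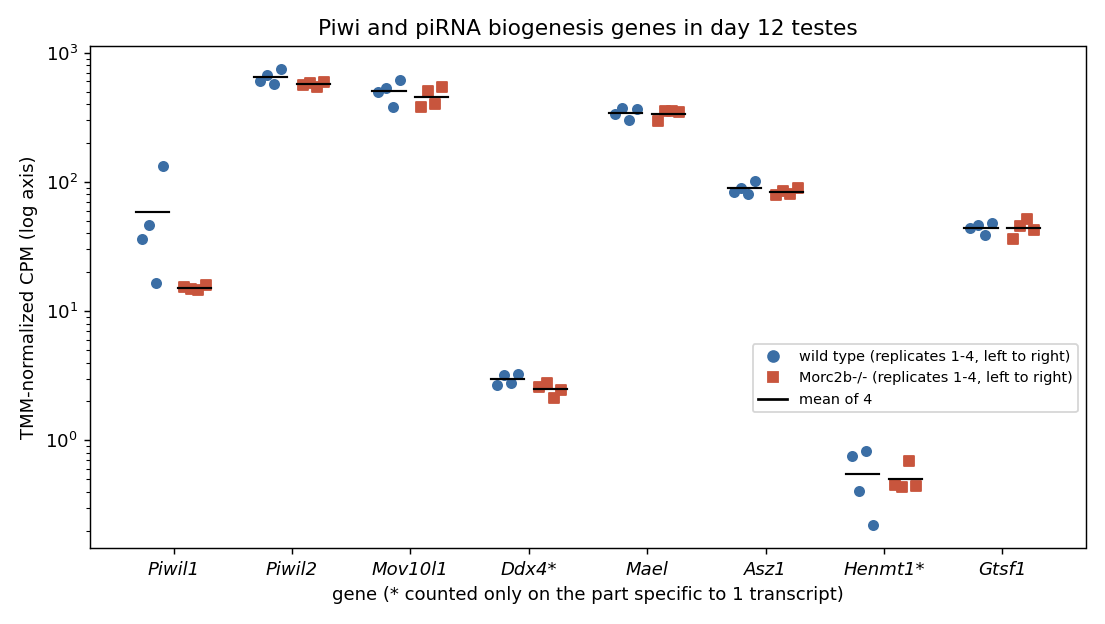
TMM-normalized CPM (log axis) of the 8 tested genes in each library, wild type as circles and *Morc2b*-/- as squares, replicates 1 to 4 from left to right, with the mean of 4 as a bar. *Piwil1* ranged from 16.6 to 133 CPM in wild type and from 14.7 to 15.8 CPM in *Morc2b*-/-, whereas the genotypes overlapped for the other 7 genes.

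*Piwil2*, the Piwi gene that is on before meiosis, was higher per length, at a wild type mean of 132.5 CPM per kilobase of exon against 14.7 for *Piwil1*, and its libraries lay closer together. It was at 607, 674, 573.5 and 749.7 CPM in wild type and at 563, 585, 546 and 591 CPM in *Morc2b*-/- replicates 1 to 4. The highest library was again wild type replicate 4, and the genotypes overlapped because the library labelled wild type replicate 3 lay below 2 *Morc2b*-/- libraries. The means were 651 ± 77.9 and 571.5 ± 20.7 CPM (SD, n = 4), and the log2 fold change was -0.19 with a standard error of 0.08. The unadjusted p of *Piwil2* in edgeR's quasi-likelihood test was 0.0482, the adjusted p 0.9998, and the exact permutation p 0.0857. When single libraries were left out, the unadjusted edgeR p of *Piwil2* ranged from 0.0129 to 0.123, whereas that of *Piwil1* ranged from 0.000507 to 0.0151. Without wild type replicate 4 the log2 fold change of *Piwil2* was -0.12, and without the 2 libraries whose *Morc2b* counts go against their labels it was -0.22.

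The ratio of *Piwil1* to *Piwil2* compares both genes within a library, with no correction for length, and needs no scaling between libraries. *Piwil1* amounted to 5.96%, 6.87%, 2.90% and 17.7% of the *Piwil2* CPM in wild type replicates 1 to 4, and to 2.75%, 2.53%, 2.68% and 2.67% in *Morc2b*-/- replicates 1 to 4. On the log2 scale the ratio averaged -3.88 ± 1.07 in wild type and -5.23 ± 0.051 in *Morc2b*-/- (SD, n = 4), a difference of -1.34. The exact two-sided permutation p, not adjusted, was 0.0286, the smallest that 4 against 4 samples allow. *Piwil1* alone already separated the genotypes with the same p, so the ratio is not separate evidence. All 4 *Morc2b*-/- ratios lay below all 4 wild type ratios, although only the 3 wild type libraries other than replicate 3 stood clear by more than 1 log2 unit. Without wild type replicate 4 the difference was -0.88. Without the 2 libraries whose *Morc2b* counts go against their labels it was -1.76 with an exact permutation p of 0.100, the smallest that 3 against 3 samples allow. The wild type library left out in the latter case had the lowest ratio of its genotype.

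The same held against most of the other fully counted genes. The log2 ratio of *Piwil1* was lower in *Morc2b*-/- by a difference of -1.40 against *Mov10l1*, -1.50 against *Mael* and -1.45 against *Asz1*, with no overlap of the genotypes, and by -1.50 against *Gtsf1*, where the library labelled wild type replicate 3 lay below *Morc2b*-/- replicate 1. These 4 ratios share their numerator and are given without a test.

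**Figure D2:**
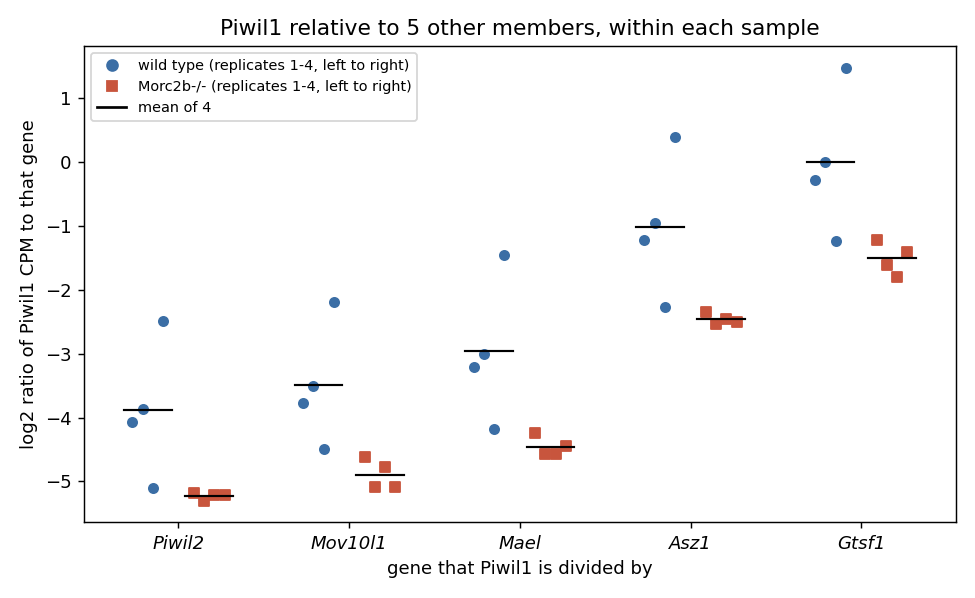
Log2 ratio of the CPM of *Piwil1* to that of each of 5 other genes within each library, wild type as circles and *Morc2b*-/- as squares, replicates 1 to 4 from left to right, with the mean of 4 as a bar. Against *Piwil2* the *Morc2b*-/- ratios lie between -5.30 and -5.18 and the wild type ratios between -5.11 and -2.50.

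The piRNA processing genes differed little between genotypes. *Mov10l1*, the helicase, was at 494.5, 529.6, 376 and 610 CPM in wild type and 383, 503, 403 and 541 CPM in *Morc2b*-/- replicates 1 to 4. These ranges overlap almost completely, with wild type replicate 4 the highest and the library labelled wild type replicate 3 the lowest of all 8. The log2 fold change of *Mov10l1* was -0.14 with a standard error of 0.16 (unadjusted p 0.41, edgeR). *Asz1*, the mitochondrial scaffold, was at 84.0, 90.0, 80.7 and 101 CPM in wild type and 79.5, 85.7, 81.0 and 89.9 CPM in *Morc2b*-/-, with a log2 fold change of -0.08 and a standard error of 0.08.

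The germ granule gene *Mael* was at 335, 371.5, 301 and 363 CPM in wild type and 294, 354, 351 and 344.5 CPM in *Morc2b*-/-, and its log2 fold change was -0.03 with a standard error of 0.08. *Gtsf1*, the cofactor of Piwi cleavage, was at 44.2, 46.1, 39.1 and 47.7 CPM in wild type and 36.1, 45.2, 51.2 and 42.1 CPM in *Morc2b*-/-, with a log2 fold change of -0.02 and a standard error of 0.11. For both genes the genotypes overlapped, and the highest *Gtsf1* value was that of the library labelled *Morc2b*-/- replicate 3. The differences of *Mael* and *Gtsf1* were smaller than their standard errors over all 8 libraries, and the direction for *Mael* and *Gtsf1* turned when single libraries were left out. Without the 2 libraries whose *Morc2b* counts go against their labels, the log2 fold changes were -0.20 for *Mov10l1* (standard error 0.14), -0.11 for *Asz1* (0.094), -0.11 for *Mael* (0.088) and -0.16 for *Gtsf1* (0.11). They were larger than their standard errors there, with the lowest wild type library of each gene left out. The edgeR adjusted p was 0.9999 for each.

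The partly counted genes rest on few reads. *Ddx4* was at 2.70, 3.23, 2.79 and 3.24 CPM in wild type and 2.59, 2.76, 2.12 and 2.48 CPM in *Morc2b*-/-, so the highest *Morc2b*-/- library lay just above the lowest wild type library. Its log2 fold change was -0.27 with a standard error of 0.15 (unadjusted p 0.12, edgeR) and its exact permutation p 0.0571. Without the 2 libraries whose *Morc2b* counts go against their labels it was -0.23. *Henmt1*, the methyltransferase, was at 0.763, 0.404, 0.821 and 0.220 CPM in wild type and 0.453, 0.433, 0.688 and 0.447 CPM in *Morc2b*-/-, with a log2 fold change of -0.13 and a standard error of 0.40. *Pld6*, the endonuclease, had 0, 1, 3 and 6 counts in wild type and 2, 2, 3 and 2 counts in *Morc2b*-/-, and no difference was detectable at this depth.

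Among the 8 genes tested, 2 (*Piwil1* and *Piwil2*) had an unadjusted p under 0.05, beside 1.84% of all genes tested, and none passed after adjustment. Only *Piwil1* showed no overlap between the genotypes, beside 1.29% of all genes tested in either direction and 0.881% with *Morc2b*-/- lower. All 8 fitted log2 fold changes were negative, with a median of -0.13, whereas over all genes the median was 0.002 with 6647 negative and 6860 positive. Leaving out *Piwil1*, the other 7 ranged from -0.27 to -0.02. Cell type markers were read beside them. Of 13 leptotene and zygotene markers, 10 had negative log2 fold changes (median -0.05, 0 at an unadjusted edgeR p under 0.05). Of 7 tested Sertoli cell markers, 6 had positive ones (median 0.10, 1 at an unadjusted edgeR p under 0.05, *Clu*). The other lists went either way. Negative values were held by 2 of 7 tested spermatogonial (median 0.07), 4 of 6 pachytene (-0.57) and 0 of 6 spermatid markers (1.22). For Leydig cells it was 1 of 5 (0.18), for peritubular myoid cells 2 of 2 (-0.39), for macrophages 3 of 3 (-0.10) and for epididymis 0 of 1 (1.05). The leptotene and zygotene sums were 2835 to 4212 CPM in wild type and 2624 to 4265 CPM in *Morc2b*-/-, the Sertoli cell sums 6675 to 7557 and 7260 to 8124 CPM, and their part in the fold changes was not tested. Wild type replicate 4 was the highest library for 5 of the 8 genes (62.5%), beside 18.6% of all genes tested.

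A list of 20 further piRNA pathway genes, including Tudor-domain proteins, nuclease and transposon-silencing factors and 2 transcription regulators, gave a like picture. Of these, 19 were listed and 13 tested: all 11 listed under 1 transcript and 2 of the 8 listed under more than 1. None passed the adjusted threshold in either direction, and the median log2 fold change was -0.099, with 12 negative and 1 positive value (*Morc1*, 0.07). *Tdrd9*, a helicase that acts with nuclear Piwi proteins, was the 1 gene with an unadjusted p under 0.05. It was at 232, 251, 189.5 and 316 CPM in wild type and 193, 204, 179 and 212 CPM in *Morc2b*-/-, with a log2 fold change of -0.33, a standard error of 0.14, an unadjusted p of 0.0388 in edgeR and an exact permutation p of 0.114. As for *Piwil1* and *Piwil2*, wild type replicate 4 was its highest library, and without it the log2 fold change of *Tdrd9* was -0.19. Without the 2 libraries whose *Morc2b* counts go against their labels it was -0.39, with an edgeR adjusted p of 0.914.

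*Mybl1* encodes A-MYB, the transcription factor that turns on pachytene piRNA precursor genes and several protein-coding genes of the pathway. Counted only on the part specific to 1 transcript, it was at 1.64, 2.31, 2.36 and 4.02 CPM in wild type and 1.62, 3.14, 1.83 and 3.58 CPM in *Morc2b*-/-. The ranges coincide, and the log2 fold change was -0.02 with a standard error of 0.34.

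Of 9 somatic and germline paralogs of the genes examined here, 7 were tested and 0 passed the adjusted or the unadjusted threshold in edgeR. The median log2 fold change of those tested was -0.029, with 4 negative and 3 positive values. *Gtsf1l*, a paralog of *Gtsf1*, had the largest fold change in size, at 0.86 with a standard error of 1.58. It was at 5.40, 0.0734, 0.143 and 0.0314 CPM in wild type and 0.711, 0.757, 8.94 and 0 CPM in *Morc2b*-/-. Its 2 high libraries are the 2 with the highest spermatid marker sums, and the part of those markers in its level was not tested. *Mov10*, the somatic relative of *Mov10l1*, was listed under 3 transcripts and so only partly counted. It held 146 counts in all, with a log2 fold change of -0.44 and a standard error of 0.28.

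**Figure D3:**
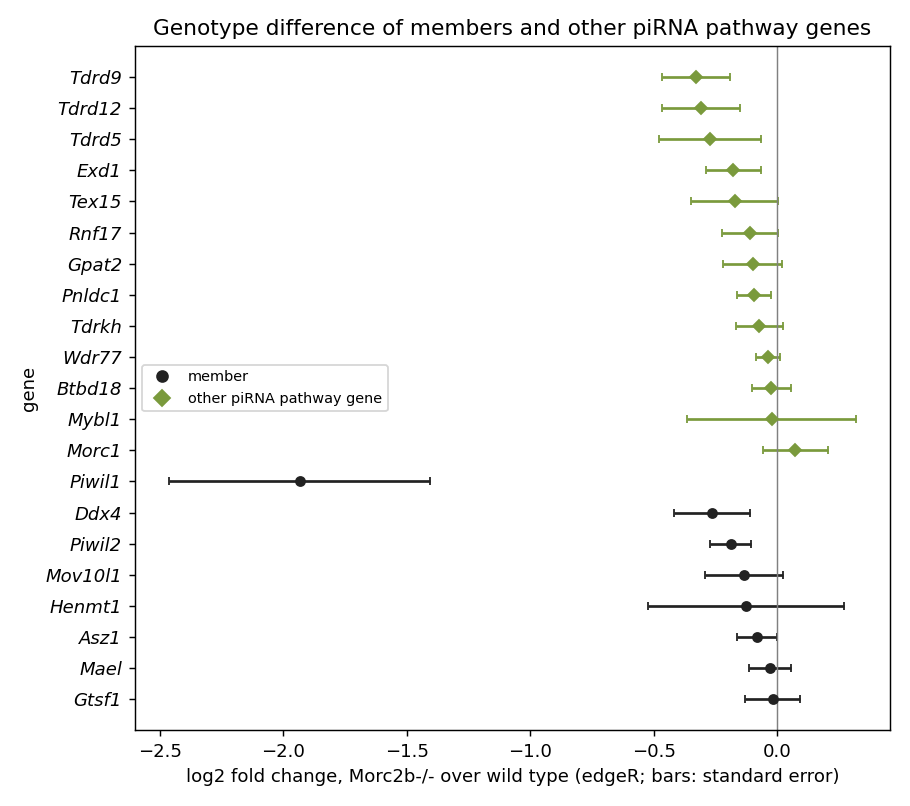
Fitted log2 fold change (*Morc2b*-/- over wild type, edgeR) with its standard error as a bar for the 8 tested genes examined here (black circles) and 13 tested genes of the wider pathway (green diamonds), with 4 libraries per genotype. *Piwil1* stands at -1.93 and all others lie between -0.33 and 0.07.

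Compared per length, as CPM per kilobase of exon, the order of wild type levels was *Mael* (222 ± 20.7), *Piwil2* (132.5 ± 15.9), *Mov10l1* (119 ± 23.1), *Gtsf1* (31.8 ± 2.69), *Asz1* (31.5 ± 3.17) and *Piwil1* (14.7 ± 13.0; SD, n = 4). *Mael* stood clear of *Piwil2*, whereas *Piwil2* and *Mov10l1* overlapped over the 4 libraries, as did *Gtsf1* and *Asz1*. The order of the latter pair depends on the length used: with the longest annotated transcript in place of all exons they were at 54.0 and 37.9. *Piwil1* was at 9.17, 11.7, 4.21 and 33.7 CPM per kilobase in wild type replicates 1 to 4, so it was the lowest of the 6 genes in every wild type library, close to *Gtsf1* (34.3) and *Asz1* (35.7) in replicate 4. In *Morc2b*-/- the order was the same, with *Mael* at 217 and *Piwil1* at 3.85 ± 0.140 CPM per kilobase.

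**Figure D4:**
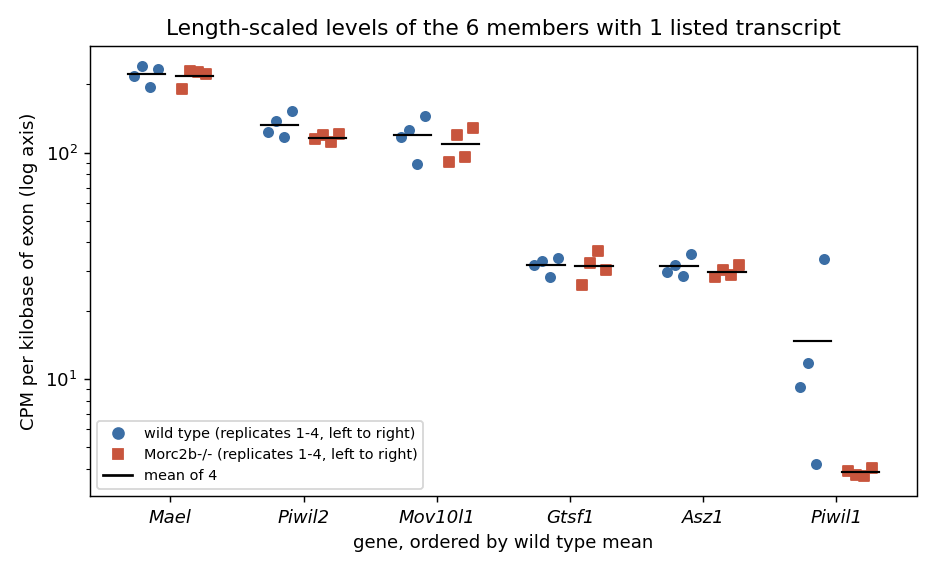
CPM per kilobase of exon (log axis) of the 6 genes listed under 1 transcript, ordered by their wild type mean, wild type as circles and *Morc2b*-/- as squares, replicates 1 to 4 from left to right, with the mean of 4 as a bar. *Mael* is highest at 222 in wild type, and *Piwil1* spreads from 4.21 to 33.7 in wild type and stays near 3.85 in *Morc2b*-/-.

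*Piwil1* had the largest spread between libraries of the 8 tested genes. Over all 8 libraries the SD of its log2 CPM was 1.15, and 1.89% of all genes tested had a larger one. For the other 5 fully counted genes this SD was 0.115 to 0.258, beside a median of 0.191 over all genes. Within wild type the coefficient of variation of *Piwil1* was 88.7%, and within *Morc2b*-/- it was 3.62%. *Piwil2* had coefficients of 12.0% and 3.61%, so the 2 Piwi genes had about equal coefficients within *Morc2b*-/-. The *Morc2b*-/- libraries held 460 to 547 counts of *Piwil1* and 17198 to 21637 of *Piwil2*. Counting error thus weighs more in the coefficient of *Piwil1*, and the equal values do not show equal spread between testes.

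*Piwil1* was read beside stage markers, since it is a gene of the pachytene stage. Of 10 pachytene markers, *Clgn* was at 0 in all libraries, but it was listed under 3 transcripts and so only partly counted. The sum of the 10 was 151, 95.7, 26.4 and 244.5 CPM in wild type replicates 1 to 4 and 34.0, 54.5, 200.0 and 49.7 CPM in *Morc2b*-/- replicates 1 to 4. In wild type the highest and the lowest library were the same for this sum and for *Piwil1*, namely replicates 4 and 3. In *Morc2b*-/- they were not: the library labelled *Morc2b*-/- replicate 3 had the highest marker sum of its genotype and the lowest *Piwil1* level of all 8 libraries. The markers were divided in that library. *Ldhc*, *Meig1*, *Pgk2*, *Adam2* and *Spag6* were at their highest of the genotype. *Ybx2* (1.81 CPM) and *Hspa2* (0.143 CPM, 5 counts), each listed under 2 transcripts, were at their lowest of all 8 libraries, as *Piwil1* was. *Ldhc*, the germ cell lactate dehydrogenase, was at 103 CPM there and at 111 CPM in wild type replicate 4, where *Piwil1* was at 14.7 and 133 CPM. That *Morc2b*-/- library is also the one with the highest spermatid marker sum, and the part of that signal in its *Ldhc* level was not tested. No pachytene marker of the 6 tested had an unadjusted p under 0.05 in edgeR, and their median log2 fold change was -0.57. *Adam2*, a sperm surface protein gene, had a fold change like that of *Piwil1*, at -1.98 with a standard error of 0.98 (unadjusted p 0.0745) and a *Morc2b*-/- mean of 25.4% of wild type, but its genotypes overlapped. Its SD of log2 CPM over the 8 libraries was 2.08, larger than that of *Piwil1*.

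Wild type replicate 4 and *Morc2b*-/- replicate 4, a pair picked after their values were seen, had similar sums of 13 leptotene and zygotene markers, at 4209 and 4265 CPM. The other wild type and *Morc2b*-/- libraries of the same number differed more, for example 4212 and 3357 CPM in replicates 2. In the replicate 4 pair, synaptonemal complex genes of the list were mostly close in level. *Sycp1* was at 733 and 735 CPM, *Sycp2* at 1031 and 1016 CPM and *Sycp3* at 667 and 661 CPM. The exception was *Syce2*, listed under 4 transcripts and so only partly counted, at 1.01 and 2.03 CPM. *Piwil1* was 8.40 times higher in the wild type library, beside ratios of 1.27 for *Piwil2*, 1.13 for *Mov10l1*, 1.13 for *Gtsf1*, 1.12 for *Asz1* and 1.05 for *Mael*. Of the 10 pachytene markers, 6 were higher in the wild type library, among them *Ldhc* (12.8 times), *Adam2* (6.88 times) and *Meig1* (2.81 times). The markers *H1f6* (0.283 against 0.688 CPM) and *Spag6* (1.32 against 1.75 CPM) were lower there. *Clgn* and *Tcp11*, each listed under more than 1 transcript, were at 0 in both libraries. This is 1 library against 1 and has no replicate check, and the part of germ cell stage in it was not tested. Wild type replicate 2 had a like leptotene and zygotene sum (4212 CPM), but *Piwil1* was at 46.3 CPM there and the pachytene sum at 95.7 CPM. In wild type replicate 4 these were 133 and 244.5 CPM, so the ratio of 8.40 depends on which wild type library is taken.

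**Figure D5:**
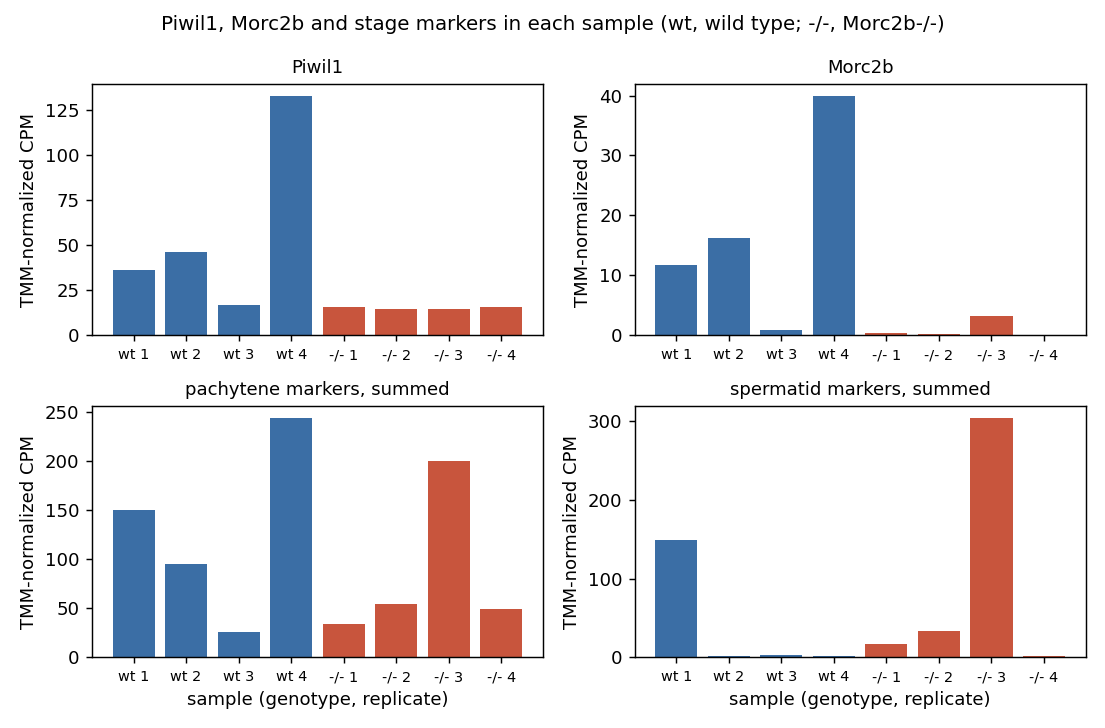
TMM-normalized CPM in each library (bars, 1 per library, wild type in blue and *Morc2b*-/- in red) of *Piwil1*, *Morc2b* and the summed pachytene and spermatid markers. *Piwil1* is highest in wild type replicate 4 at 133 CPM and lies between 14.7 and 15.8 CPM in all *Morc2b*-/- libraries, including replicate 3, whose pachytene and spermatid sums reach 200.0 and 304 CPM.

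The genes most like *Piwil1* over the 8 libraries were sought among all genes tested outside the pathway, by the root mean square difference of centred log2 CPM. They were *Cfap46* (0.177), *9230105E05Rik* (0.272), *Eps8l3* (0.299), *Lypd10* (0.314) and *4931428L18Rik* (0.360). *Cfap46*, a gene of the ciliary axoneme, was at 5.92, 7.56, 2.46 and 18.7 CPM in wild type and 2.81, 2.70, 2.75 and 3.27 CPM in *Morc2b*-/-. All 5 were highest in wild type replicate 4 and all overlapped between genotypes, since the library labelled wild type replicate 3 lay among or below the *Morc2b*-/- libraries. The genes most like *Piwil2* were *Eno4* (0.029), *Supt20* (0.032), *Nup205* (0.044), *4933421O10Rik* (0.048) and *Rad54b* (0.051), which also had wild type replicate 4 as their highest library.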

How the data were processed

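RNA-seq (stranded mRNA libraries, NextSeq 500) was made from 8 pairs of day 12 testes, 4 per genotype. Per the study's methods, the authors removed adapters and poor reads and mapped what remained to NCBI37/mm9 with Tophat. The deposited files give, 1 per sample, whole-number read counts of RefSeq transcripts that were neither normalized nor pooled. The counting program and its strand setting are not given in the sources used here, so a gene and its antisense partner may share reads. Reads on more than 1 transcript, 26.8% to 28.8% of uniquely aligned reads, are in no count, so a gene with several listed transcripts is undercounted.

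Of 35819 transcripts, 35522 were matched to a symbol by accession, and the 297 others (0.484% of counts) stayed as separate units. Counts were summed per symbol into 24651 genes. Samples differed by more than sampling noise (chi-square per degree of freedom of 6.86 or more), and no pair was counted as 1. Each sample is a separate pair of testes.

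The test of genotype was run in edgeR 4.0.16 under R 4.3.3 (TMM, filterByExpr by genotype, glmQLFit and glmQLFTest, genotype only), with Benjamini-Hochberg adjustment over 13507 genes. The procedure was tested on simulated data. Exact permutation tests used log2 CPM with a prior count of 2. Markers, pathway and paralog lists are described by counts and medians. The alternatives were RLE, DESeq2 1.42.0, limma-voom (limma 3.58.1), robust empirical Bayes, no filter, at least 10 counts in every sample, transcripts as units, library totals only, prior counts of 0.5 and 10, the longest transcript as length, the replicate number as a block and leaving out each sample. Leaving out the 2 libraries whose *Morc2b* counts go against their labels was chosen after seeing the data. Lengths are union exons of the NCBIM37 annotation. Figures were drawn with matplotlib 3.10.9.

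The genes and lists were chosen with earlier results of these data known. Besides the 10 genes, *Morc2b* and the markers, the text names pathway genes or paralogs with an unadjusted p under 0.05, with no overlap or among the 3 with the largest fold changes, *Mybl1*, and the 5 genes nearest to *Piwil1* and to *Piwil2*. *Morc1* is named as the 1 positive pathway gene.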

Additional observations from a re-analysis of the deposited data

Results flagged for a closer look

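Log2 CPM values of the 8 tested genes, *Tdrd9*, *Mybl1*, *Gtsf1l*, *Mov10*, *Morc2b* and the genes nearest to *Piwil1* and *Piwil2* were screened in each genotype. So was the *Piwil1* to *Piwil2* log2 ratio. A library was flagged where its gap to its nearest neighbour took up more than 0.829 of the range of the 4 libraries. Of 48 groups screened, 2 met this, and chance alone gives about 1 in 20 for independent groups. The nearest genes were picked for their likeness, so these groups are not independent. *Mael* was at 294.3 CPM in *Morc2b*-/- replicate 1, below the other 3 *Morc2b*-/- libraries at 344.5 to 354 CPM. On the log2 scale its gap was 0.854 of the range. *Henmt1* was at 0.6875 CPM in the library labelled *Morc2b*-/- replicate 3, above the other 3 at 0.433 to 0.453 CPM. On the log2 scale its gap was 0.905 of the range, and this value rests on 24 counts.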

How the results depend on the processing

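Of the recomputed values, 446 kept their direction and their side of the threshold, moved by less than the spread or, for counts, changed by less than a fixed factor. Of the others, 21 moved further, 14 turned in direction and 6 lost a p under 0.05. No fold change passed the threshold in the main edgeR fit, so keeping its side says little. DESeq2 called 1 gene of the whole table where edgeR called 0. The genes of the pathway examined here with an unadjusted p under 0.05 numbered 1 with limma-voom and 1 without the low-count filter, and 1 to 2 when single libraries were left out. Over all genes, those with an unadjusted p under 0.05 numbered 422 without the filter, 572 with the replicate block, 421 without the 2 libraries whose *Morc2b* counts go against their labels, and 204 to 504 without single libraries. The difference in the *Piwil1* to *Piwil2* log2 ratio was -1.34 with the replicate block (sign-flip permutation p 0.125, the smallest that 4 pairs allow), -1.76 without those 2 libraries (exact permutation p 0.100) and -1.75 to -0.88 without single libraries (exact permutation p 0.0286 to 0.0571). Genes without overlap numbered 2 without those 2 libraries (*Piwil1* and *Piwil2*, beside 7.05% of all genes tested). They numbered 1 to 2 without single libraries, beside 2.24% to 4.97% of all genes tested, against 1.29% with all libraries. Log2 fold changes turned for *Henmt1* (0.016 with limma-voom, -0.40 to 0.11 without single libraries), *Mael* (-0.087 to 0.028, and -0.108 without those 2 libraries), *Gtsf1* (-0.10 to 0.06, and -0.159), *Mybl1* (0.066 without those 2 libraries, -0.23 to 0.27 without single ones) and *Gtsf1l* (-1.90 and -1.53 to 4.95). The fold change of *Piwil1* was -2.24 to -1.12 without single libraries. The cause was not tested.

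Replicate numbers are shared by the genotypes, and the labels do not say that they mark pairs. Same-numbered libraries deviated with correlations of -0.322 to 0.453. Of the 8 libraries, 4 correlated best with their own number among the 4 libraries of the other genotype. These values do not decide whether the numbers mark pairs, and the main test does not use them. With the replicate block 0 genes passed the adjusted threshold, and 572 had an unadjusted edgeR p under 0.05, against 249 without the block. With the longest transcript as length, wild type levels were 54.0 for *Gtsf1* and 37.9 for *Asz1*. Depth limits *Pld6*, *Henmt1* and *Ddx4*, and ratios with *Piwil4* could not be computed.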
